A study of Mus musculus with 6 samples.

Results

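Integrins are cell surface receptors built from an alpha and a beta subunit, and a T cell uses them to hold on to other cells and to tissue. *Itgae* encodes CD103 (αE), which pairs with β7 and binds E-cadherin on epithelia, and CD103 is a familiar surface marker of T cells that reside in mucosal tissue and of many regulatory T cells. TGF-β is known to raise *Itgae* in T cells, and αvβ8 integrin in turn releases active TGF-β from its latent form. The 10 genes described here encode the alpha subunits αE (*Itgae*), α4 (*Itga4*), αL (*Itgal*), αv (*Itgav*) and α6 (*Itga6*) and the beta subunits β7 (*Itgb7*), β1 (*Itgb1*), β2 (*Itgb2*), β8 (*Itgb8*) and β3 (*Itgb3*). They were taken as every non-control probe that the array annotates with 1 of these symbols, which gave 30 of the 41174 probes and 10 of the 27376 names on the array, and all 10 symbols are current in RefSeq. Of the 30 probes, 24 exceeded background clearly on 3 or more of the 6 arrays and were tested, and each of the 10 genes kept at least 1 tested probe.

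RNA was measured on 6 one-colour Agilent arrays, 1 for each of 3 *miR-31fl/fl CD4Cre* (cKO) mice and 3 *miR-31fl/fl* control mice, all C57BL/6 and 6 weeks old. The Cre is driven by *CD4* sequences, so the floxed *miR-31* allele is removed in T cells, and both genotypes carry that floxed allele. Naive splenic CD4+CD25-Foxp3gfp-CD62Lhi T cells were polarized into iTreg cells (regulatory T cells induced in culture) for 4 days with plate-bound anti-CD3 at 5 µg/ml, soluble anti-CD28 at 2 µg/ml, TGF-β1 at 5 ng/ml and IL-2 at 40 ng/ml. The question put to the arrays was which transcripts differ when T cells without miR-31 become iTreg cells. No probe carries the name of miR-31, so the deletion itself was not checked on these arrays. The labels name no sort after the culture, and in such a bulk sample fewer cells that express a gene and less RNA per cell cannot be told apart.

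A level below is the log2 signal of a probe minus the 75th percentile of its own array, so that 0 is that percentile, and a difference is cKO minus control on that log2 scale. Levels of different probes are not comparable with each other, because each probe binds with its own strength. That percentile was 987 to 1148 in raw signal over the 6 arrays, 49.3% to 57.7% of spots were well above background and 0 were saturated. Slide 1 holds the 3 cKO arrays with control array 1, and slide 2 holds control arrays 2 and 3, so slide and genotype are partly confounded, and the difference within slide 1 (3 cKO arrays against 1 control array) is given beside the brightest probe of each subunit and beside the list genes with levels for every array. Of the 8 T cell markers 7 were found on the array, and all 7 were well above background on every array. Their mean relative signal was 5.15 to 5.47 in cKO and 5.06 to 5.12 in control cells. Such a mean is taken over the linear signals of the tested genes and then put on the log2 scale, so the brightest gene weighs most. Of the 8 Treg markers 7 were tested, at 4.63 to 4.81 and 4.31 to 4.66. The brightest was *Tnfrsf18*, with means of 7.22 and 6.81, and of the 7 differences 4 were above 0 and 3 below. The groups did not overlap for 1 higher marker and 1 lower one (15.9% and 20.7% of all tested probes). The higher one was *Ctla4*, which read 0.57, 0.95 and 1.16 in cKO and 0.24, 0.11 and -0.47 in control cells. Its difference was 0.94 (adjusted p = 0.1355, limma), and the lower one was *Foxp3*. *Foxp3*, the transcription factor that defines regulatory T cells, was well above background on all arrays. Its mean was 2.91 ± 0.40 in cKO and 3.53 ± 0.20 in control cells (SD, n = 3 each), a difference of -0.62 (adjusted p = 0.192, limma). It read 3.16, 3.12 and 2.45 in cKO and 3.42, 3.42 and 3.76 in control cells, so all cKO arrays lay below all control arrays (20.7% of all tested probes). Of the 5 B cell markers 1 was tested, at -1.14 to 0.07 in cKO and -1.69 to -0.92 in control cells, and *Pax5* was not well above background on any array. Of the 8 myeloid and dendritic markers 2 were tested, at -4.86 to -0.83 and -4.75 to -2.93, and neither *Itgax* nor *Adgre1* was well above background on any array. *Itgam* was so on 2 control arrays and *Lyz2* on 1, and both on 0 cKO arrays. *Cd14* and *Flt3* were each so on 1 cKO array and 0 control arrays.

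The sequences that the main results rest on are given here. The mature miRNA encoded by the floxed gene is shown with its seed, the bases 2 to 8 that pair with target transcripts, in capitals (RefSeq, GRCm38.p6, chr4:88910614-88910635, minus strand).
miR-31-5p: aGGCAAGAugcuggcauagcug
Both *Itgae* probes are shown because they lie in different parts of the transcript and carry the same pattern. Probe 1 is annotated to mm9 chr11:72959105-72960563 and probe 2 to chr11:72945236-72946221. Each is 60 bases long but covers 1459 and 986 bases of the genome, so that each crosses an exon boundary and reads spliced RNA.
Itgae probe 1: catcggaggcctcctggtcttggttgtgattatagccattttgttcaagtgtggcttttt
Itgae probe 2: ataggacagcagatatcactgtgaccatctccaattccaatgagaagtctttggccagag
The *Itgb3* probes are shown by their first 30 bases because they did not move together. Probe 1 follows the RefSeq transcript NM_016780 at mm9 chr11:104531672-104531731, and probe 2 follows the record AF026509 at chr11:104528490-104528560.
Itgb3 probe 1: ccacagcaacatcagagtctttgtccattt
Itgb3 probe 2: tgggactctctgccattatgtttacagagg

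No integrin subunit differed between cKO and control cells after adjustment over the whole array, and most subunits had a somewhat higher mean in cKO cells. Of the 24 tested probes, 0 passed in limma at an adjusted p of 0.05, and 0 by the test that the study's methods name, against 0.242% (54) of all 22281 tested probes in limma. Without adjustment, 8 of the 24 were higher in cKO cells at p under 0.05 in limma, where 11.5% of all tested probes were, and 0 were lower, where 11.4% of all were. The 8 became 2 without control replicate 2, 2 with the slide as a term and 2 within slide 1, and with any 1 array left out the 54 fell to 0 or 1. The 8 probes are both of *Itgal*, that of *Itgb2*, 3 of the 6 of *Itgav*, and the brightest of *Itgb8* and of *Itgb3*. The groups did not overlap, with cKO on top, for 9 of the 24 probes (15.9% of all tested probes), and with cKO below for 1 (20.7%), a count that became 4 without control replicate 1. In all, 17 of the 24 differences were above 0, with a median of 0.28, while 44.8% of all tested probes were above 0, with a median of -0.04. Probes of the same gene are not independent, so these counts do not rest on 24 separate observations. By the brightest probe of each of the 10 genes, 8 differences were above 0 and 2 below. At unadjusted p under 0.05 in limma, 4 of the 10 were higher and 0 lower (11.5% and 11.4% of all tested probes).

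**Figure D1:**
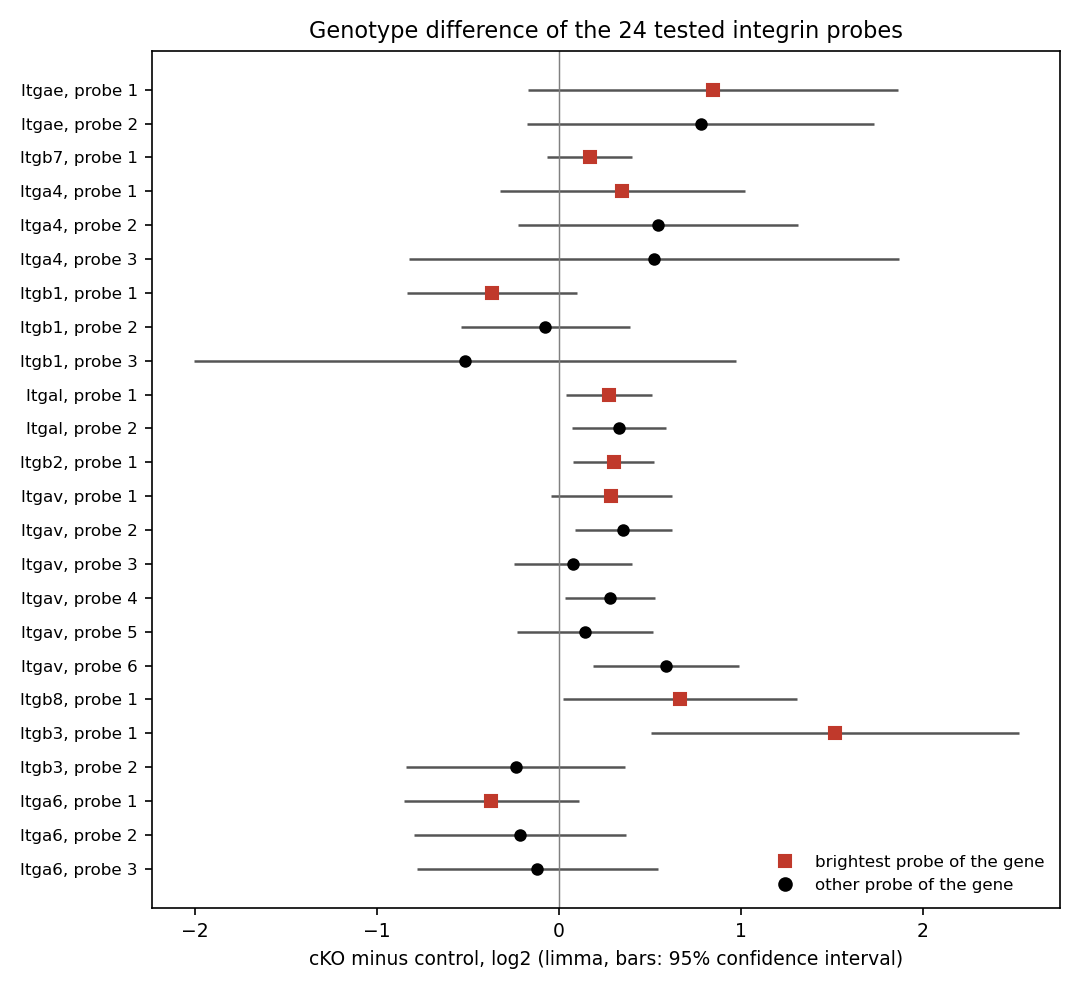
Difference between genotypes (cKO minus control, log2, x axis) of the 24 tested integrin probes, by gene and with the brightest probe of each gene as a red square. Bars are 95% confidence intervals from limma, and 8 of them lie wholly above 0, the widest shift being that of *Itgb3* probe 1 at 1.51.

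*Itgae* was even across the cKO cultures and uneven across the control cultures. Probe 1 read 3.31, 3.26 and 3.17 on the cKO arrays and 3.19, 2.57 and 1.45 on the control arrays. Control array 1 therefore lay among the cKO arrays, control array 3 lay far below them, and the groups overlapped. The means were 3.25 ± 0.07 and 2.40 ± 0.88 (SD, n = 3 each), a difference of 0.85 with a standard error of 0.42 and a 95% confidence interval of -0.17 to 1.86 (adjusted p = 0.27, limma). Probe 2 showed the same order at a dimmer signal, with 0.57, 0.55 and 0.48 in cKO and 0.48, -0.07 and -1.14 in control cells. Its groups stood just apart, and its difference of 0.78 (SE 0.39) had an adjusted p of 0.275. Measured within each array, probe 1 minus probe 2 was 2.71 ± 0.03 in cKO and 2.65 ± 0.06 in control cells, a difference of 0.07 (exact p = 0.2). Within slide 1 the difference was 0.06 for either probe, and without control replicate 3 it was 0.37 for probe 1.

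**Figure D2:**
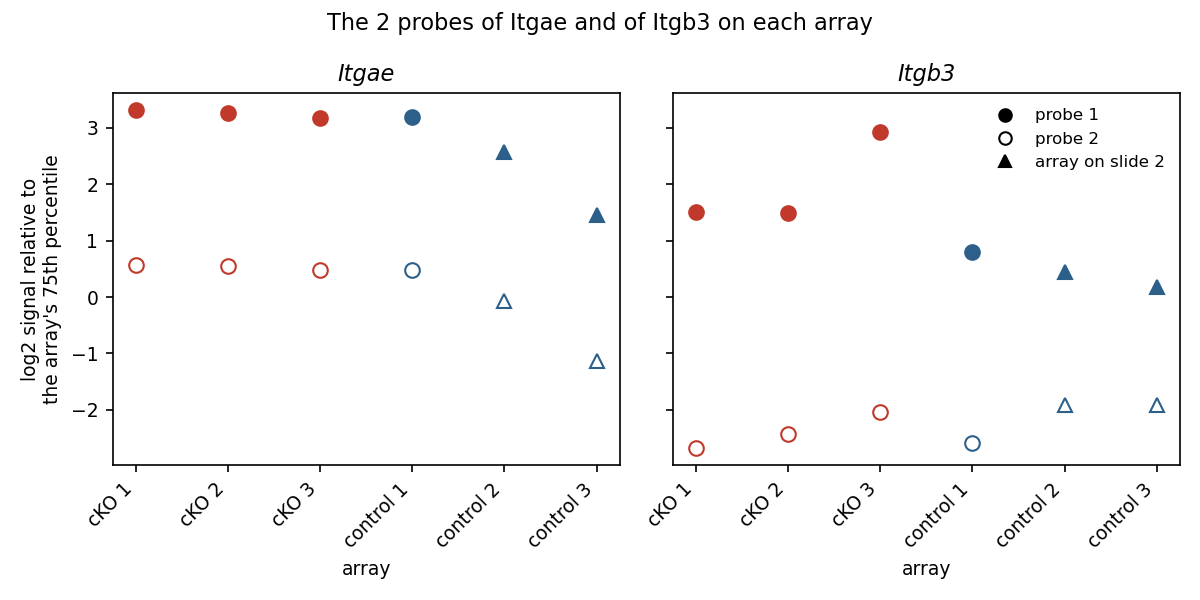
Levels (log2 signal relative to the 75th percentile of the array, y axis) of both probes of *Itgae* (left) and of *Itgb3* (right) on each of the 6 arrays, with cKO in red, control in blue, slide 2 as triangles and probe 2 as open symbols. Both *Itgae* probes are low on control arrays 2 and 3, whereas of the *Itgb3* probes only probe 1 is higher in all cKO arrays.

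Among 20248 tested probes with another gene name, the 5 whose pattern over the 6 arrays was closest to that of *Itgae* probe 1 belonged to *Sema6d*, *Chst11*, *Cass4*, *Emilin2* and *Smo*. Likeness was the root mean square difference of values centred on their own mean, which ran from 0.09 log2 units for *Sema6d* to 0.21 for *Smo*. *Sema6d*, a transmembrane semaphorin, read 0.08, 0.02 and 0.05 in cKO and -0.13, -0.82 and -1.72 in control cells. All 5 were lowest on control array 3, which follows from their choice by likeness to *Itgae* probe 1, itself lowest there.

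Cell types other than CD4+ T cells also carry *Itgae*, and their markers differed as follows. Of the 5 CD8 T cell markers 4 were tested, and their mean relative signal was 0.44 to 0.72 in cKO and 0.97 to 1.28 in control cells. *Eomes*, 1 of the 4, was the other way round, with means of -0.23 and -0.39 and 0.32, -0.0031 and -1.49 on the control arrays. *Cd8a* itself was well above background on all arrays, with means of -0.27 and 0.60. *Crtam* was lower in cKO cells by 1.39 without overlap (unadjusted p = 0.0317, adjusted p = 0.191, limma). The untested CD8 T cell marker, *Gzmk*, exceeded background clearly on 2 of the cKO arrays but on 0 of the control arrays, with overlapping levels. Of the 5 natural killer cell markers 2 were tested, *Klrd1* and *Klrk1*. Their mean signal was -0.17 to 2.28 in cKO and -0.84 to 0.13 in control cells. Among the untested ones, *Klrb1c* was not well above background on any array. *Ncr1* exceeded background clearly on 2 of the cKO arrays but on 0 of the control arrays. Its levels lay apart, at -4.41 to -4.23 in cKO and -6.58 to -5.84 in control cells. For *Klra8* the count went the other way, with 0 cKO arrays and 1 control array. The part of these cells in the level of *Itgae* was not tested.

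*Itgb7*, the partner of αE and, with α4, part of the gut homing receptor, was steadier. Its probe read 5.68, 5.67 and 5.76 in cKO and 5.49, 5.62 and 5.51 in control cells, so the groups did not overlap, but the difference was 0.17 (SE 0.10, 95% confidence interval -0.07 to 0.40, adjusted p = 0.325) and turned to -0.077 under normexp background correction with 75th-percentile scaling. Within slide 1 it was 0.22. *Itga4* was measured by 6 probes, of which 3 were tested. The brightest, at mm9 chr2:79170690-79170749, read 0.64, 0.04 and 1.13 in cKO and 0.27, 0.12 and 0.38 in control cells. The cKO arrays thus spanned the control arrays on both sides, and the difference was 0.35 (95% confidence interval -0.33 to 1.02, adjusted p = 0.457). It was 0.33 within slide 1, 0.08 without cKO replicate 3 and 0.63 without cKO replicate 2. The other 2 tested *Itga4* probes differed by 0.54 and 0.52, with adjusted p of 0.327 and 0.572 (1.17 and 1.84 within slide 1), and the 3 untested ones were well above background on 0 to 1 array of each genotype.

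*Itgb1* encodes β1, the common partner of α4 and α6, and was the only gene of the 10 with a tested probe lower on all cKO arrays than on any control array. Probe 1, printed in 10 spots and annotated to mm9 chr8:131256492-131256551, read 0.44, 0.32 and -0.23 in cKO and 0.52, 0.49 and 0.63 in control cells. The cKO array 3 lay furthest down, and the difference was -0.37 (SE 0.19, 95% confidence interval -0.83 to 0.10, adjusted p = 0.284). It was -0.16 without that array and -0.34 within slide 1. Probe 2, from the same RefSeq transcript NM_010578, differed by -0.08 with overlapping groups, and probe 3, which follows the record U37029 and was well above background on 2 arrays of each genotype, by -0.52 (SE 0.61). *Itga6*, whose product binds laminin, was also lower in mean but uneven among controls. Its probe 1 read 3.39, 3.34 and 3.05 in cKO and 3.27, 3.69 and 3.93 in control cells, with a difference of -0.37 (95% confidence interval -0.85 to 0.11, adjusted p = 0.292). The 2 dimmer probes differed by -0.22 and -0.12. Within slide 1 the differences were -0.011, 0.27 and 0.40 from probe 1 to probe 3.

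αL and β2 form LFA-1, the receptor through which T cells bind ICAM-1 on antigen-presenting cells, and both subunits were slightly and evenly higher in cKO cells. *Itgal* probe 1 (mm9 chr7:134478358-134478417) read 3.59, 3.6 and 3.74 in cKO and 3.36, 3.33 and 3.41 in control cells. Its groups did not overlap, and the difference was 0.27 or 1.21-fold (SE 0.10, unadjusted p = 0.0303, adjusted p = 0.19, limma). *Itgal* probe 2 differed by 0.33 (adjusted p = 0.171), also without overlap. *Itgb2* (mm9 chr10:77027978-77028037) read 4.55, 4.6 and 4.56 in cKO and 4.25, 4.24 and 4.32 in control cells. The groups were tight, with SDs of 0.02 and 0.04, and stood apart by 0.30 or 1.23-fold (SE 0.09, 95% confidence interval 0.08 to 0.52, unadjusted p = 0.0158, adjusted p = 0.161). Within slide 1 the differences were 0.28 for *Itgal* and 0.32 for *Itgb2*, as large as over both slides. Under normexp background correction with 75th-percentile scaling, which moves the median difference of all probes from -0.04 to 0.11, they were 0.035 and 0.0093.

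The αv group binds RGD-containing matrix proteins and latent TGF-β. *Itgav* was measured by 6 probes, all tested and all with a difference above 0, between 0.08 and 0.59. Probe 1 (mm9 chr2:83646133-83646192) read -0.30, -0.11 and -0.04 in cKO and -0.23, -0.51 and -0.57 in control cells. Control array 1 lay between the cKO arrays, and the difference was 0.29 (SE 0.14, adjusted p = 0.255) overall and 0.08 within slide 1. Probes 2, 4 and 6 had separated groups, with differences of 0.35, 0.28 and 0.59 and adjusted p of 0.166, 0.194 and 0.15, and follow other transcript records of the gene. *Itgb8*, whose product pairs only with αv, was dim. Its 1 tested probe read -3.19, -2.59 and -2.86 in cKO and -3.09, -3.57 and -3.98 in control cells, with overlapping groups and a difference of 0.67 (SE 0.26, adjusted p = 0.211) that was 0.21 within slide 1. The other 3 *Itgb8* probes were well above background on at most 2 arrays.

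*Itgb3*, which encodes the β3 chain of the vitronectin receptor αvβ3, had the largest difference of the 24 probes. Probe 1 read 1.52, 1.5 and 2.93 in cKO and 0.79, 0.44 and 0.17 in control cells. All cKO arrays lay above all control arrays, and cKO array 3 lay well above the other cKO arrays. The means of 1.98 ± 0.82 and 0.47 ± 0.31 (SD, n = 3 each) differed by 1.51 or 2.86-fold (SE 0.42, 95% confidence interval 0.50 to 2.52, unadjusted p = 0.0103, adjusted p = 0.146, limma). The difference was 1.04 without cKO replicate 3 and 1.19 within slide 1. Probe 2, whose first 30 bases are shown above, read -2.68, -2.42 and -2.04 in cKO and -2.58, -1.91 and -1.92 in control cells, with overlapping groups and a difference of -0.24 (adjusted p = 0.564). Probe 1 minus probe 2 within each array was 4.36 ± 0.54 in cKO and 2.61 ± 0.68 in control cells, without overlap. At an exact p of 0.1, the smallest that 3 against 3 arrays can give, and 0.35 adjusted over the 7 genes with at least 2 tested probes, this was the largest such disagreement. Within slide 1 probe 2 differed by 0.20 and the gap between the probes by 0.99, against 1.75 over all arrays. The mean over both probes differed by 0.64 (adjusted p = 0.23).

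Platelets are rich in β3, so their markers bear on *Itgb3*. Of the 6 platelet markers 0 passed the filter, and *Pf4*, *Gp1bb*, *Gp9* and *Treml1* were not well above background on any array. *Itga2b* was so on 1 cKO array and 0 control arrays, and its highest level, -4.02, was on cKO array 3. *Ppbp* was so on 1 control array and 0 cKO arrays. Of the 5 erythroid markers 1 was tested, *Hbb-b1*, which differed by 2.10 (adjusted p = 0.163) with a level of -1.25 to -0.02 in cKO and -4.27 to -2.06 in control cells, while *Alas2* was not well above background on any array. *Hba-a1* was so on 2 control arrays and on 0 cKO arrays, and it was dimmer on all cKO arrays, at -6.57 to -5.11 against -4.07 to -3.32. The part of platelets in the level of *Itgb3*, and of red cells in these differences, was not tested.

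**Figure D3:**
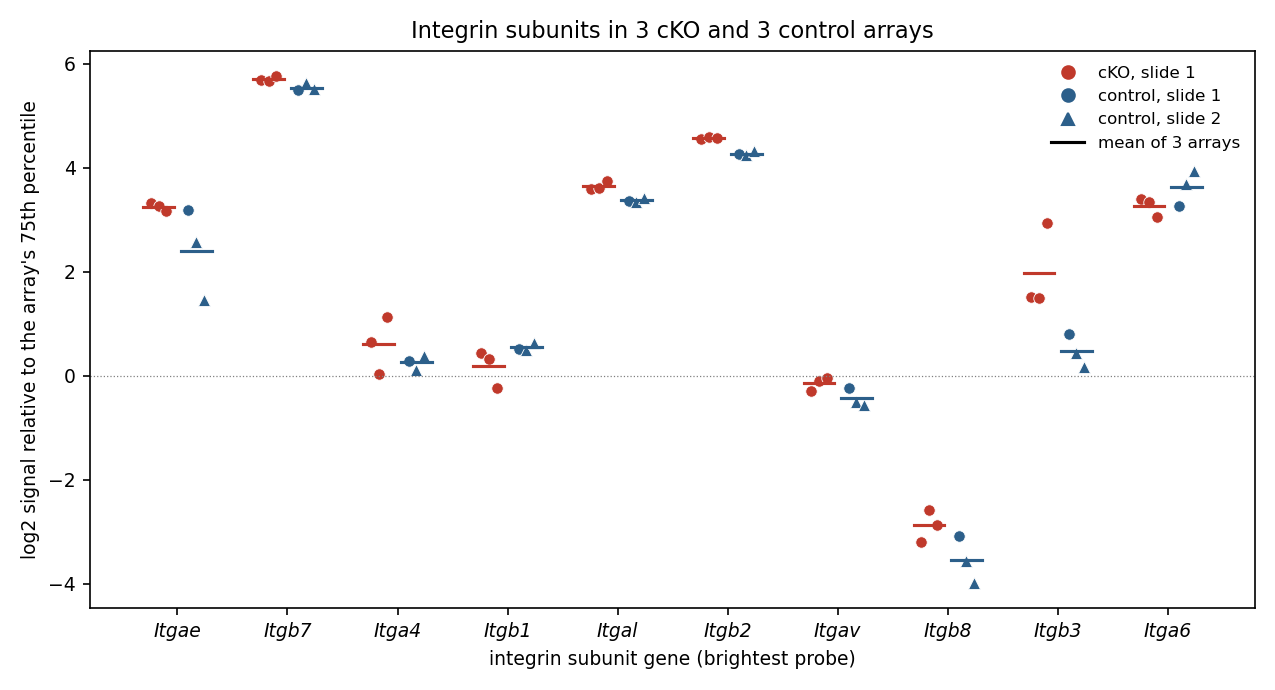
Levels (log2 signal relative to the 75th percentile of the array, y axis) of the brightest probe of each of the 10 integrin subunit genes on the 3 cKO (red) and 3 control (blue) arrays, with slide 2 as triangles and lines at the means. *Itgal*, *Itgb2*, *Itgb7* and *Itgb3* stand apart upwards and *Itgb1* downwards, while for *Itgae*, *Itgav* and *Itgb8* control array 1 lies among or beside the cKO arrays. Heights of different genes are not comparable.

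Since an alpha chain reaches the surface only with a beta chain, partners were also compared within each array, where the scaling of the array cancels and only unequal change remains. Of 8 pairs, 0 passed after adjustment, and none could, since the smallest exact p of 3 against 3 arrays is 0.1. *Itgal* minus *Itgb2* was -0.97, -0.99 and -0.82 in cKO and -0.89, -0.91 and -0.91 in control cells. The LFA-1 chains thus kept nearly the same spacing, with a difference of -0.03 (exact p = 0.7). *Itgae* minus *Itgb7* was -2.37, -2.41 and -2.59 in cKO and -2.30, -3.05 and -4.06 in control cells. That pair differed by 0.68 over all arrays (exact p = 0.4) and by -0.16 within slide 1. *Itgav* minus *Itgb3* was -1.82, -1.60 and -2.97 in cKO and -1.02, -0.94 and -0.75 in control cells, without overlap and with a difference of -1.23 (exact p = 0.1, adjusted p = 0.4). It was -1.11 within slide 1, -0.81 without cKO replicate 3, and -0.35 when the mean over the probes of each gene was used, which brings in the second *Itgb3* probe. *Itgav* minus *Itgb1* was the other pair without overlap, with a difference of 0.66 (exact p = 0.1, adjusted p = 0.4) that was 0.43 within slide 1 and 0.40 without cKO replicate 3. The remaining pairs overlapped, with differences of 0.18 for *Itga4/Itgb7*, 0.72 for *Itga4/Itgb1*, -0.38 for *Itgav/Itgb8* and -0.0036 for *Itga6/Itgb1*. Without cKO replicate 3 *Itga4/Itgb1* was 0.25, and within slide 1 *Itgav/Itgb8* was -0.13.

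**Figure D4:**
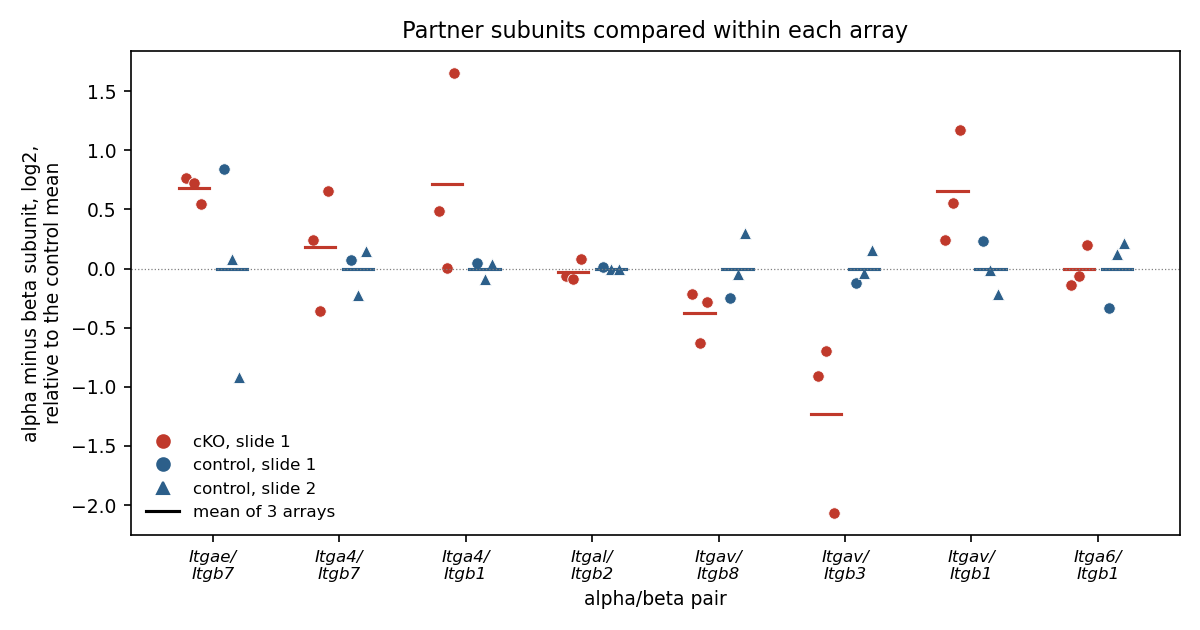
Level of the alpha subunit minus that of the beta subunit on the same array (log2, y axis, set to 0 at the control mean of each pair) for 8 alpha/beta pairs, with cKO in red, control in blue, slide 2 as triangles and lines at the means. The 3 cKO arrays lie below all control arrays for *Itgav/Itgb3* and above them for *Itgav/Itgb1*, whereas *Itgal/Itgb2* barely spreads.

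A list of 4 integrin genes described elsewhere as targets of miR-31 holds *Itga2*, *Itga5*, *Itgav* and *Itgb3*. *Itga2* was not well above background on any array. *Itga5*, the α5 chain of the fibronectin receptor, read -1.63, -2.12 and -2.86 in cKO and -2.75, -3.0 and -2.86 in control cells, with overlapping groups and a difference of 0.67 (SE 0.31, adjusted p = 0.244) that was 0.55 within slide 1, 0.38 without cKO replicate 1 and 1.00 without cKO replicate 3. By their brightest probes, the 3 measured genes had differences above 0, of 0.29 to 1.51, where 44.8% of all tested probes were above 0. The second *Itgb3* probe differed by -0.24 with overlap, and 0 of the 3 genes passed after adjustment. Among the 13 other alpha subunits, 12 were on the array and 3 were tested, and all 3 had differences above 0. *Itga7*, a laminin receptor chain known mainly from muscle, read 0.35, 0.81 and 1.80 in cKO and -0.95, -1.04 and -2.63 in control cells. Its groups lay well apart, by 2.52 or 5.75-fold (SE 0.56, unadjusted p = 0.0039, adjusted p = 0.12), and by 1.93 within slide 1. The 3 other beta subunits were all tested, and *Itgb4*, the partner of α6 in epithelia, differed by 0.47 without overlap (unadjusted p = 0.0447, adjusted p = 0.211), while *Itgb5*, a partner of αv, differed by 0.58 with overlap (adjusted p = 0.2).

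Ligands and their carriers held 2 genes past the adjusted threshold, *F11r* and *Nrros*. Of 17 genes 10 were tested, and after adjustment 1 rose and 1 fell (0.242% of all tested probes passed in either direction). Without adjustment 4 were higher and 1 was lower (11.5% and 11.4% of all tested probes). The median was 0.28, against -0.04 over all tested probes. The groups did not overlap for 3 higher genes and 2 lower ones (15.9% and 20.7% of all tested probes). *F11r* encodes JAM-A, a junctional protein that LFA-1 can bind, and rose by 2.15 (SE 0.17, adjusted p = 0.0444, limma), from -4.87, -4.86 and -4.73 in control to -2.88, -2.81 and -2.33 in cKO cells. It was well above background on 3 cKO arrays but only 1 control array, so it entered the test through the cKO arrays and the size of its change rests on control signals close to background. *Nrros*, which the array names *Lrrc33* and which tethers latent TGF-β at the surface of myeloid cells, fell by 0.96 (SE 0.10, adjusted p = 0.0467), from 3.79, 3.86 and 3.95 in control to 2.89, 2.92 and 2.91 in cKO cells. For either gene the groups did not overlap, and within slide 1 the differences were 2.20 and -0.88. The adjusted p of either gene passed 0.05 under 7 of its alternatives and missed it under 12 for *F11r* and 13 for *Nrros*, including each array left out, where it lay between 0.056 and 0.187. Under normexp with quantile normalization the difference of *F11r* was 0.90. *Cdh1*, E-cadherin and so the ligand of αEβ7, read 0.01, -0.63 and 0.43 in cKO and -0.94, -1.18 and -1.10 in control cells, a difference of 1.01 without overlap (unadjusted p = 0.00884, adjusted p = 0.142) that was 0.88 within slide 1. *Mfge8*, a bridge between αv integrins and dying cells, differed by 0.28 without overlap (adjusted p = 0.207), and by -0.0038 under normexp with 75th-percentile scaling. *Spp1* (osteopontin) was the fourth at unadjusted p under 0.05, with overlapping groups and a difference of 0.60. Besides *Nrros*, *Icam2* was lower without overlap, by -0.41 (adjusted p = 0.227, limma). *Icam1*, the gene of the LFA-1 ligand named above, differed by -0.04 with overlap (adjusted p = 0.906, limma). *Cdh1* and *F11r* are also epithelial genes. Of the 6 epithelial markers 3 were tested, *Cdh1* itself, *Epcam* (a difference of 0.61, without overlap) and *Krt18* (0.45, with overlap). Their mean relative signal was -1.23 to -0.63 in cKO and -1.91 to -1.75 in control cells, and *Krt8*, *Krt19* and *Cldn3* were not well above background on any array. The part of epithelial cells in these differences, and of myeloid cells in that of *Nrros*, was not tested.

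Inside the cell, no gene that switches integrins on and none of the adhesion complex passed after adjustment. Of the 19 genes of inside-out activation, such as talins, kindlins and Rap1, 18 were tested, with 0 past adjustment. At unadjusted p under 0.05, 0 were higher and 3 lower (11.5% and 11.4% of all tested probes). The median was -0.06, close to the -0.04 of all tested probes. *Rassf5*, which encodes the Rap1 effector RAPL, read 0.98, 1.00 and 0.98 in cKO and 1.28, 1.27 and 1.30 in control cells, and its very tight groups differed by -0.29 over all arrays and within slide 1 (adjusted p = 0.161). *Itgb1bp1*, whose product ICAP-1 holds β1 inactive, differed by -0.34 without overlap (adjusted p = 0.166), and *Tln2*, the second talin, by -0.67 with overlap (adjusted p = 0.21). Of the 23 genes of the adhesion complex 21 were tested, with 0 past adjustment, 4 higher and 0 lower without adjustment (11.5% and 11.4% of all tested probes), and a median of -0.07. In that list 9 differences were above 0 and 12 below, and the groups did not overlap for 4 higher genes and 4 lower ones (15.9% and 20.7% of all tested probes). The 4 lower, *Ptk2* (-0.69), *Nedd9* (-0.32), *Fyn* (-0.23) and *Parvg* (-0.14), missed the unadjusted threshold. *Vcl* (vinculin) read 0.02, 0.11 and -0.16 in cKO and -0.74, -0.84 and -0.56 in control cells, a difference of 0.70 (SE 0.13, adjusted p = 0.0924) that was 0.73 within slide 1. *Bcar1* (p130Cas, a docking protein) differed by 1.19, *Actn1* (α-actinin) by 0.55 and *Zyx* (zyxin) by 0.32, with adjusted p of 0.12, 0.098 and 0.185 and separated groups.

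Among the 11 transcription factors tied to *Itgae* and to homing, all tested, 0 passed after adjustment. Without it 1 was higher and 2 were lower (11.5% and 11.4% of all tested probes), and the median was 0.06 (-0.04 over all tested probes). The groups did not overlap for 2 higher factors and 3 lower ones (15.9% and 20.7% of all tested probes). Of these, *Tbx21* (0.58) and *Smad2* (-0.17) missed the unadjusted threshold. *Runx3*, a factor known to act on *Itgae* in CD8 T cells, read 2.82, 2.73 and 3.12 in cKO and 2.45, 2.29 and 1.86 in control cells, with separated groups and a difference of 0.68 (SE 0.19, unadjusted p = 0.0113, adjusted p = 0.149) that was 0.43 within slide 1. *Runx1* differed by -0.55 and *Cbfb*, the shared partner of Runx proteins, by -0.36, both without overlap and with adjusted p of 0.141 and 0.21 and values of -0.40 and -0.34 within slide 1.

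**Figure D5:**
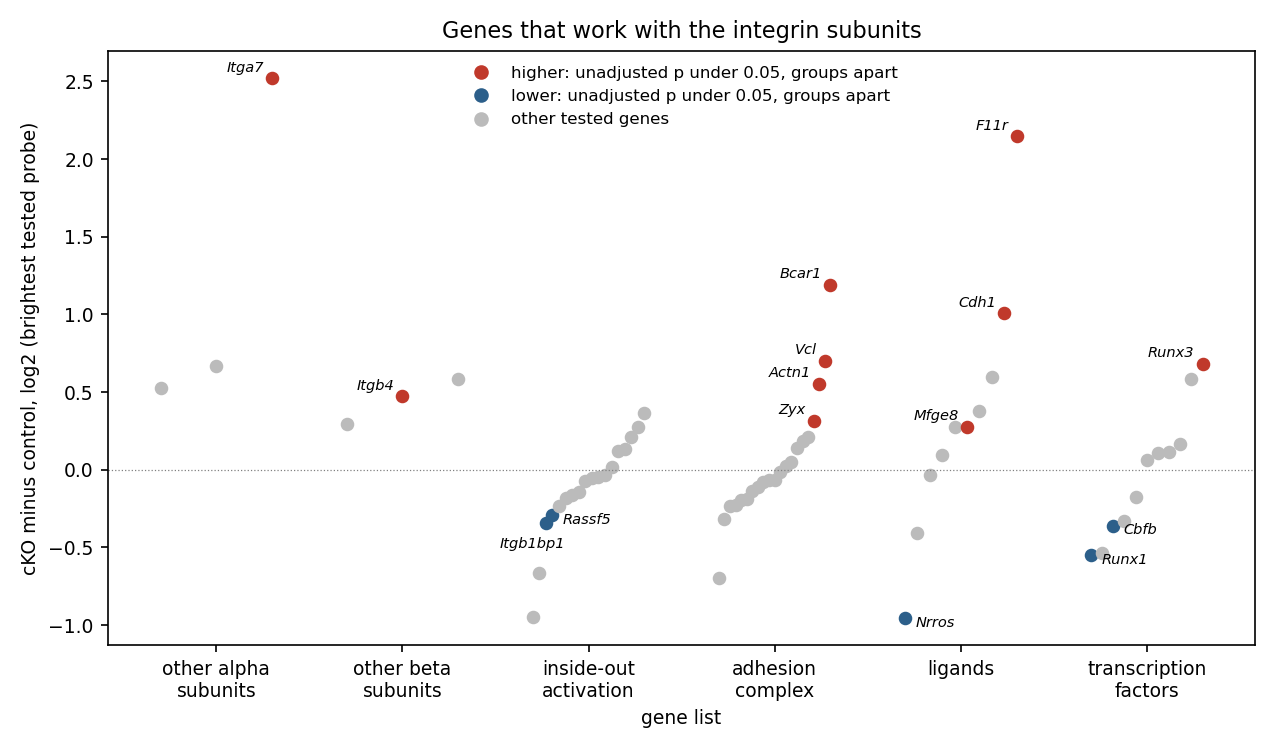
Difference between genotypes (cKO minus control, log2, y axis) of every tested gene of 6 lists of genes that work with integrins, each by its brightest probe and ordered by size within its list. Coloured points had an unadjusted p under 0.05 and groups without overlap, of which only *F11r* (2.15) and *Nrros* (-0.96) had an adjusted p under 0.05.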

How the data were processed

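The samples are 6 one-colour Agilent arrays (3 cKO, 3 control), grouped by the labels. The authors labelled the RNA with Cy3 and quantified the spots in Agilent Feature Extraction (version 10.7.3.1 per the file headers, 9.1 in the submitters' processing notes), and the deposited intensity values are linear, background-subtracted by that software and not normalized between arrays. A deposited table of log2 values of the same arrays, whose medians of 6.15 in every column and correlations of 0.998 or more with the log2 signal had it read as quantile-normalized, served as an alternative. The labels and the study's methods give different IL-2 concentrations and RNA kits, and the labels were followed.

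Here the log2 processed signal minus the 75th percentile of the array over 43379 non-control spots was averaged over the spots of a probe after 123 to 140 outlier spots per array were dropped. Probes that exceeded background clearly on 3 or more arrays (22281) were compared with limma 3.58.1 (R 4.3.3, statmod 1.5.0), with Benjamini-Hochberg adjustment over all of them and a threshold of 0.05, and without covariates. For 19 tested probes a dropped spot left an array without a value. Single values were compared by a 2-sided exact permutation test, whose smallest p for 3 against 3 is 0.1. A gene of a list stands by its brightest tested probe. Across tested probes, arrays correlated at 0.974 to 0.985 within cKO, 0.984 to 0.989 within control and 0.948 to 0.984 across genotypes. The number of arrays limits the precision, and each array is 1 mouse.

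The members and the gene lists were chosen with earlier results of these data known. Named are all 10 members with their probes, list genes at unadjusted p under 0.05 whose groups do not overlap (at most 4 per list), the integrins described as miR-31 targets, the 5 probes most like *Itgae*, and marker genes. *Tln2*, *Spp1*, *Itgb5*, *Ptk2*, *Nedd9*, *Fyn*, *Parvg*, *Tbx21*, *Smad2* and *Icam2* were named after their values were seen, to complete counts. *Icam1* was named then too, as the gene of an LFA-1 ligand. Of the listed genes without a probe under their current symbol, 2 (*Nrros*, *Adgre1*) were found through RefSeq accessions, and 4 entries have no probe. Probe positions are the array's own mm9 annotation, and sequences come from the array annotation and RefSeq. The fit was tested on simulated data. Alternatives covered background correction, normalization, the filter, the test, the variance model, array weights, replicate number, slide, each array left out and the mean over a gene's probes. The 75th percentile taken over probes and the comparison between probes of a gene were added after seeing the data. Tables and plots used Python 3.11.15, pandas 2.3.3, numpy 2.4.6 and matplotlib 3.10.9.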

Additional observations from a re-analysis of the deposited data

How the results depend on the processing

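No integrin probe had an adjusted p under 0.05 under any alternative (0 of the tested member probes in each). Where an alternative gave 0 over the whole array, as listed below, the 0 among members was fixed. The brightest probe of each gene kept its direction under every alternative except *Itgb7*, which became -0.077 under normexp with 75th-percentile scaling, a setting that moves the median difference of all probes from -0.04 to 0.11 and the split of unadjusted calls over all probes from 2573 higher and 2547 lower to 1126 and 533. With the median as scaling point the split was 2640 and 1853. The cause of these changes was not tested.

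The 8 member probes higher at unadjusted p under 0.05 became 1 under normexp with 75th-percentile scaling, 4 with no filter on dim probes, 3 with the replicate block, 2 with the slide as a term, 2 within the slide that holds both groups, and 2 to 7 with 1 array left out. The 0 lower became 0 to 2 with 1 array left out. The 9 member probes whose groups did not overlap upwards became 4 under normexp with 75th-percentile scaling, and the 1 downwards became 0 with the median as scaling point and 1 to 4 with 1 array left out.

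The 54 probes of the whole array with an adjusted p under 0.05 became 112 under normexp with quantile normalization, 0 under normexp with 75th-percentile scaling, 26 under quantile normalization, 28 in the authors' table, 0 with no filter, 174 with the background filter applied to every array, 0 by the methods' t-test, 105 with trend and robust fitting, 924 with array weights, 0 with the slide as a term, 0 within 1 slide, 29 with the percentile over probes (chosen after seeing the data), and 0 to 1 with 1 array left out. With the replicate block they became 0. Arrays with the same number deviated from their group means with correlations of -0.144, 0.008 and -0.186, so the numbers were not taken to pair the arrays.

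Partner differences near 0 turned sign. *Itgal/Itgb2* was 0.0041 under normexp with quantile normalization, 0.026 under normexp with 75th-percentile scaling, 0.0020 with probe means, and -0.078 to 0.0072 with 1 array left out. *Itga6/Itgb1* was 0.0078 under normexp with quantile normalization, 0.051 under quantile normalization, 0.046 in the authors' table, 0.33 within slide 1, 0.085 with probe means, and -0.17 to 0.10 with 1 array left out. *Itgae/Itgb7* was -0.16 within slide 1, and *Itga4/Itgb7* was -0.059 to 0.45 with 1 array left out. Among dimmer probes, *Itgb1* probe 2 turned to 0.070 and probe 3 to 0.58, *Itgb3* probe 2 to 0.19 and *Itga6* probe 3 to 0.14 under normexp with 75th-percentile scaling. With array weights, *Itgb1* probe 2 was 0.18 and *Itga6* probe 3 0.046. With the slide as a term and within slide 1, *Itgb3* probe 2 was 0.20 and *Itga6* probes 2 and 3 were 0.27 and 0.40. With 1 array left out, *Itgb1* probe 2 ran from -0.22 to 0.091 and probe 3 from -1.02 to 0.19, *Itgav* probe 3 from -0.040 to 0.16, *Itga4* probe 3 from -0.14 to 0.89 and *Itga6* probe 3 from -0.38 to 0.17. *Mfge8* was -0.0038 under normexp with 75th-percentile scaling. Signal over background left 3 probes of *Itga4* and 3 of *Itgb8* untested.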
